A study of Mus musculus with 4 samples.

Results

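The genes of prostaglandin synthesis were followed in the HT-22 line, immortalized cells from mouse hippocampus, labelled as neurons, with and without induced expression of Pja2, a RING-type E3 ubiquitin ligase. They were taken by symbol from the known pathway, with earlier results of these data known: the phospholipase gene Pla2g4a, the cyclooxygenase genes Ptgs1 and Ptgs2, the terminal synthase genes Ptges, Ptges2, Ptges3, Ptgis and Ptgds, and the degrading enzyme gene Hpgd. Of these 9 genes, 8 had a row among the 24689 genes of the deposited table, and Hpgd was not analysed here. The study held 4 RNA libraries. The 2 controls carry the title WT and are called uninduced in their characteristics, and a shared parent line is not stated, so that induction and line of origin cannot be told apart. The 2 induced libraries carry the title Pja2-pb, in which pb is left unexplained, and neither the promoter nor the means of induction is given. Cells of both groups were at passages 21 to 24. Whether libraries of a group stem from separate cultures is not stated, and each p-value then rests on a spread between libraries that may be technical.

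Prostaglandins are local lipid mediators made in a short chain of steps. A phospholipase frees arachidonate from membrane lipids, a cyclooxygenase turns it into the unstable intermediate prostaglandin H, and a terminal synthase converts that into prostaglandin E, D, F, prostacyclin or thromboxane. In the hippocampus Ptgs2 is known as a gene of excitatory neurons that responds to synaptic activity and to inflammation, whereas Ptgs1 is best known in brain from microglia.

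Reads assigned to genes numbered 25787452 to 35262653 per library, so that 1 CPM, the usual depth-scaled unit of reads, stood for 25.8 to 35.3 reads. Values are normalized reads, that is, reads per gene after the authors' scaling between libraries, and means are given ± SD with n = 2 per group. Pja2 itself had 6167 and 5881 normalized reads without induction against 54829.8 and 54244 with it, a 9.05-fold difference in the direction of the labels. Of the 21 neuronal markers listed, 10 had a row and 2, Eno2 and Tubb3, reached a mean of 1 CPM. Syp, Syt1, Nefl, Dcx, Gria1, Slc17a7, Prox1 and Elavl3 lay below that. Of 12 mesenchymal markers 10 reached it, with summed levels of 11434 to 12969 CPM in the controls and 11004 to 11097 CPM in the induced cells, led by Col1a2 and Col1a1. Of those 10, Acta2 rose and Dcn and Col3a1 fell (named after their values were seen), with log2 fold changes of 1.20, -1.72 and -0.64; their part in the results was not tested. The astrocyte list summed to 92.5 to 104 CPM in the controls and 105 to 131 CPM in the induced cells, and of its 2 tested members Aldh1l1 had a log2 fold change of -2.63 (adjusted p = 0.0618 in limma, past the threshold by voom) and Slc1a3 of 0.29 (adjusted p = 0.269). The neuronal list summed to 144 to 145 CPM and 128 to 142 CPM. In bulk RNA, fewer cells of a type and less RNA per cell cannot be told apart, here or in any value that follows.

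Fold changes were tested with limma on the log2 values over the 13276 genes whose mean reached 1 CPM. Each adjusted p is limma's, two-sided, with Benjamini-Hochberg adjustment over those genes and 0.05 as the limit for a call. Folds are ratios of group means, and log2 fold changes are induced minus control. Transcripts of the phospholipase and of both cyclooxygenases rose, and that of prostacyclin synthase fell. Of the 7 tested genes 3 were higher (Ptgs2, Ptgs1 and Pla2g4a) and 1 lower (Ptgis), while Ptges, Ptges2 and Ptges3 did not pass. Over all tested genes 2.08% were called higher, 1.34% lower and 3.42% in either direction. The 4 called genes were also the 4 whose libraries did not overlap between the groups, which held for 51.3% of all tested genes (26.2% with both induced libraries above both controls and 25.1% with both below). The median log2 fold change of the 7 was 0.10, against 0.00 over all tested genes, with values from -1.38 to 1.42. Ptgds had a mean under the filter and was not tested.

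**Figure D1:**
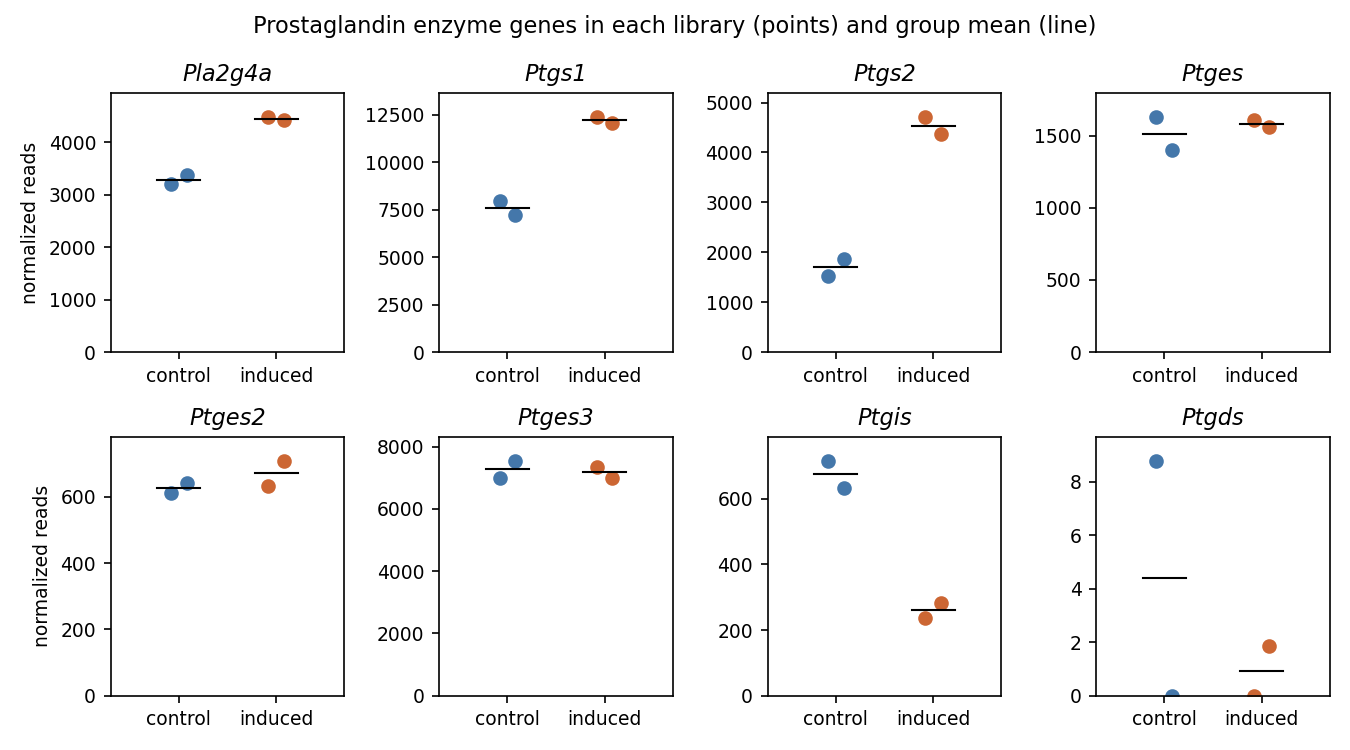
Normalized reads (vertical axis, from 0, a scale of its own per panel) of the 8 prostaglandin enzyme genes with a row in the table, in the 2 control and 2 induced libraries. Points are libraries and lines are group means. Both induced libraries lie above both controls for Pla2g4a, Ptgs1 and Ptgs2 and below them for Ptgis, while the groups overlap for Ptges, Ptges2 and Ptges3.

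Pla2g4a (ENSMUSG00000056220, chromosome 1) encodes cytosolic phospholipase A2 alpha, the calcium-dependent enzyme that frees arachidonate for eicosanoid synthesis. It had 3195 and 3378 normalized reads without induction against 4479 and 4420.0 with it. The induced libraries lay close together and above both controls. The ratio of means was 1.35, with a log2 fold change of 0.44 (SE 0.06, 95% interval 0.28 to 0.60, adjusted p = 0.0301). The call did not hold with every library left out: the adjusted p was 0.0747 without control replicate 1, 0.108 without induced replicate 1 and 0.0982 without induced replicate 2, at log2 fold changes of 0.40, 0.43 and 0.45.

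Ptgs1 (ENSMUSG00000047250, chromosome 2) encodes cyclooxygenase 1, the form usually described as constitutive. It had 7928 and 7221 normalized reads without induction against 12370.2 and 12044 with it. Both induced libraries exceeded both controls, and the difference of the means was far larger than the spread within either group (7575 ± 500.0 against 12207 ± 231). The ratio was 1.61 and the log2 fold change 0.69 (SE 0.07, 95% interval 0.52 to 0.86, adjusted p = 0.0110). Leaving out any 1 library gave log2 fold changes from 0.62 to 0.76 and adjusted p-values from 0.0168 to 0.0271. In the GENCODE annotation 148 exonic bases of Ptgs1 are shared with the unconfirmed model Gm43621. The macrophage and microglia markers Ptprc, Adgre1, Csf1r, Itgam and Cx3cr1 were all under 1 CPM, and the 8 members of that list with a row summed to 60.3 to 72.1 CPM in the controls and 54.3 to 57.5 CPM in the induced cells. That sum was mostly Tmem119, with a log2 fold change of -0.31 (adjusted p = 0.190), while the other tested members, Cd68 and Aif1, stood at 0.59 and 0.55 (adjusted p = 0.219 and 0.362). The part of these cells in the Ptgs1 result was not tested.

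Ptgs2 (ENSMUSG00000032487, chromosome 1) encodes cyclooxygenase 2, the inducible form. It had 1535 and 1863 normalized reads without induction against 4710 and 4364 with it. The ratio of means was 2.67 and the log2 fold change 1.42 (SE 0.11, 95% interval 1.15 to 1.69, adjusted p = 0.00637), the largest among the 7 tested genes of the set. It was past the threshold in all 11 refits, with log2 fold changes from 1.28 to 1.56. Without a variance trend the adjusted p of Ptgs2 was 0.0492, only just under the limit. The induced libraries did not overlap the controls, and their spread (4537 ± 244) was close to that of the controls (1699 ± 232).

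**Figure D2:**
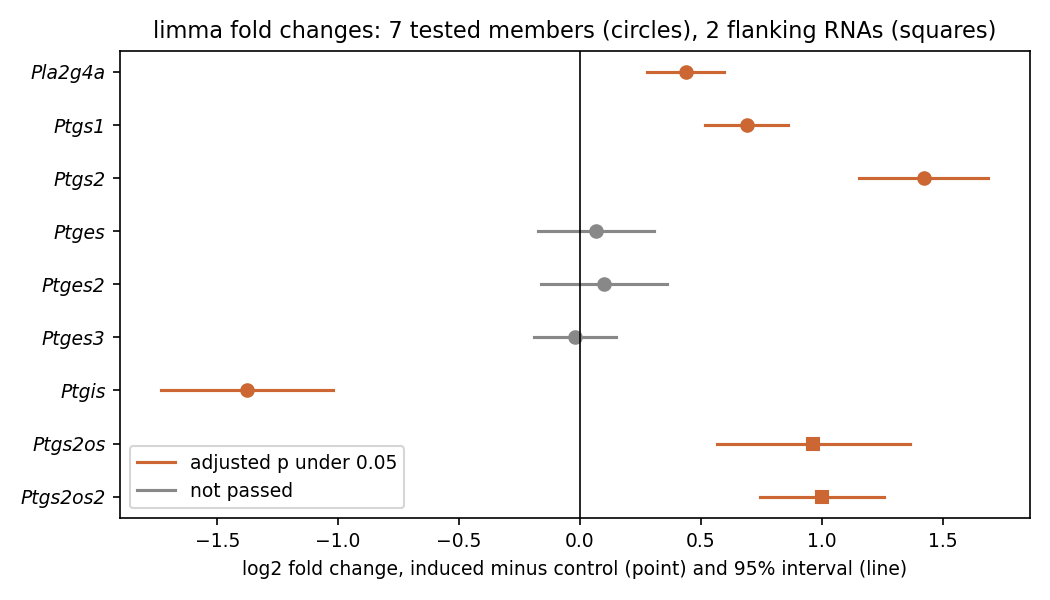
Log2 fold change, induced minus control, from limma (points) with its 95% interval (lines) for the 7 tested prostaglandin enzyme genes and for Ptgs2os and Ptgs2os2, RNAs transcribed near Ptgs2. Orange marks an adjusted p under 0.05. Ptgs2 stands at 1.42 and Ptgis at -1.38, and the intervals of Ptges, Ptges2 and Ptges3 include 0.

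Between the cyclooxygenases the balance shifted towards Ptgs2. Levels of different genes were compared per kilobase of annotated exon, with lengths of 3.88 kb for Ptgs1 and 4.58 kb for Ptgs2. On that scale Ptgs2 made up 14.1% and 18.0% of both cyclooxygenases together without induction against 24.4% and 23.5% with it. The ratio of Ptgs2 to Ptgs1 was 0.192 ± 0.0386 without induction and 0.315 ± 0.0110 with it. The libraries of the groups did not overlap, and the exact two-sided permutation p was 0.333, the smallest that 2 libraries against 2 can give. Ptgs1 was still the more abundant cyclooxygenase transcript in each of the 4 libraries.

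Sequence upstream of the 3 genes that rose is shown. Ptgs2 shares its start region with a second transcript that also changed. The windows are RefSeq's (GRCm38.p6), which held 8 of the 9 genes and lacked Ptgis, the gene that fell. Each run gives the 250 bases before the annotated start, 5′ to 3′ on the gene's strand. Capitals mark matches to the motifs searched on both strands: the E-box CACGTG, the cAMP response element core CGTCA, the C/EBP palindrome TTGCGCAA, the GC box GGGCGG, the AP-1 site TGAGTCA, an NF-kB consensus and the TATA box TATAAA. The window of Ptgs2 is chr1:150099781-150100030 on the plus strand, that of Ptgs1 chr2:36230176-36230425 on the plus strand and that of Pla2g4a chr1:149961291-149961540 on the minus strand. A separate run holds the first 30 bases after the start of Ptgs2, chr1:150100031-150100060.
Ptgs2: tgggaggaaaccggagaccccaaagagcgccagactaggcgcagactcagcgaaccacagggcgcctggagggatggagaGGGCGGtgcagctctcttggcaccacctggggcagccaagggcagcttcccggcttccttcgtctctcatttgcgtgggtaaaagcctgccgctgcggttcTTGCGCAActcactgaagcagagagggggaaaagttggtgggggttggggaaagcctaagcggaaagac
Ptgs2 after start: agagtcaccactaCGTCACGTGgagtccgc
Ptgs1: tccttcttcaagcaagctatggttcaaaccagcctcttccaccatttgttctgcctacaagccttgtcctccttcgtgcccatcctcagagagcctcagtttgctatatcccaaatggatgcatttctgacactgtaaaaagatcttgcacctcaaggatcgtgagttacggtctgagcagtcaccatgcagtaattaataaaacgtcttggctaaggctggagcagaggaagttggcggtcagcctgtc
Pla2g4a: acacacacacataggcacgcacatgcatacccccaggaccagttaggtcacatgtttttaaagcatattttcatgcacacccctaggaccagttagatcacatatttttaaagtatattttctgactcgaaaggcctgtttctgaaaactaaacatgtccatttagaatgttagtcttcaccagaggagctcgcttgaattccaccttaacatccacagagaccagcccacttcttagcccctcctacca

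In the Ptgs2 window the C/EBP palindrome lay 69 to 62 bases before the start and the GC box 170 to 165 bases before it. The cAMP response element core at bases 14 to 18 after the start overlaps the E-box at bases 17 to 22. Over 32851 RefSeq windows of 300 bases (250 before and 50 after the start), the C/EBP palindrome was found in 0.183%, the E-box in 7.15%, the cAMP element core in 20.8% and the GC box in 35.7%. No match to any of the motifs was found in the windows of Ptgs1 or of the Pla2g4a start shown. A second annotated Pla2g4a start, chr1:149922440-149922689 for its upstream bases, has a TATA box match 200 to 195 bases before it, on the opposite strand. The NF-kB letters were found in 0.155% of windows, the AP-1 letters in 5.2% and the TATA box in 13.6%, and in neither run of Ptgs2. Other forms of these sites, and bases farther upstream, were not searched. Genes that did not pass held some of the same letters. Ptges3 had the cAMP element core at bases 12 to 16 after its start, Ptges2 an E-box and Ptges the GC box. These are matches of letters, not measured binding. Distances count from the RefSeq start, and where transcription starts in these cells was not measured.

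Ptgs2os and Ptgs2os2, noncoding RNAs annotated on the strand opposite to Ptgs2, were looked at for their position, after their values were seen. Ptgs2os starts 157 bases upstream of the Ptgs2 start and runs away from it, so its start lies inside the Ptgs2 run printed above. It had 127 and 144 normalized reads without induction against 251 and 280.1 with it, 1.96-fold (log2 fold change 0.97, SE 0.16, adjusted p = 0.0399). Omitting any single library ended that call (adjusted p from 0.0712 to 0.177), while its log2 fold change kept between 0.87 and 1.06. Ptgs2os2, listed in RefSeq also as Linc-cox2, starts 64.9 kb from Ptgs2 on its downstream side. Its values were 665 and 749.8 without induction against 1489 and 1345 with it, 2.002-fold (log2 fold change 1.001, SE 0.10, adjusted p = 0.0121), past the threshold whichever library was omitted but not without a variance trend (adjusted p = 0.0612). The kit does not mark the strand. In the GENCODE annotation no exon of Ptgs2 overlaps one of another gene, but which gene models the authors counted on is not given in the sources used here.

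Pla2g4a lies on the other side of Ptgs2os, with its start 139 kb from that of Ptgs2, and is the nearest protein-coding gene with a row on that side. The nearest genes beyond these that passed the filter, the pseudogenes Gm15583 and Gm15453, bound the stretch. Gm15583 had 274 and 325 normalized reads without induction against 300.1 and 328 with it (adjusted p = 0.831). For Gm15453 the values were 759.5 and 806 against 731 and 769 (adjusted p = 0.768). The 4 tested genes between them are those described above, all called higher, against 2.08% of all tested genes. The stretch was looked at after its values were seen, so nothing is read from that count, and the calls of Pla2g4a and Ptgs2os were lost in several refits.

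The 3 prostaglandin E synthase genes did not pass. Ptges (ENSMUSG00000050737, chromosome 2), which encodes the inducible microsomal enzyme often coupled with cyclooxygenase 2, had 1628 and 1399.6 normalized reads without induction against 1605 and 1559 with it. Its induced libraries lay between the controls, with a log2 fold change of 0.07 (95% interval -0.17 to 0.31, adjusted p = 0.753). Ptges2 (ENSMUSG00000026820, chromosome 2), a second membrane-associated form, had 612 and 640.3 against 634 and 709, a log2 fold change of 0.10 (95% interval -0.16 to 0.36, adjusted p = 0.659). Ptges3 (ENSMUSG00000071072, chromosome 10) encodes the cytosolic form, known also as the Hsp90 co-chaperone p23. It had 6988 and 7554 without induction against 7360 and 6981 with it, a log2 fold change of -0.02 (95% interval -0.19 to 0.15, adjusted p = 0.903). On the fold scale the intervals ran from 0.888 to 1.24 for Ptges, from 0.893 to 1.28 for Ptges2 and from 0.877 to 1.11 for Ptges3. Each of them lay below the interval of Ptgs1, 1.43 to 1.82. The interval of Pla2g4a, 1.21 to 1.51, overlapped those of Ptges and Ptges2. A processed pseudogene of Ptges3, listed as Gm9769, had 1076 and 1053 against 1049 and 1044 normalized reads, and copies of this kind can share reads, so the level of Ptges3 is uncertain.

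Ptgis (ENSMUSG00000017969, chromosome 2) encodes prostacyclin synthase, a cytochrome P450 enzyme best known from vascular endothelium. It had 717 and 633 normalized reads without induction against 236 and 284 with it. The groups were well apart, and the induced mean was 38.5% of the control mean (675 ± 59.3 against 259.9 ± 33.8). The log2 fold change was -1.38 (SE 0.14, 95% interval -1.73 to -1.02, adjusted p = 0.0121). Leaving out any 1 library gave values from -1.51 to -1.24 with adjusted p-values from 0.0132 to 0.0417. In the annotation 156 exonic bases of Ptgis are shared with the noncoding transcript 1110018N20Rik. None of the 5 endothelial markers with a row, Pecam1, Cdh5, Kdr, Tek and Flt1, reached 1 CPM, and together they summed to 1.24 to 1.32 CPM in the controls and 0.709 to 0.931 CPM in the induced cells. Relative to Ptges, on the scale per kilobase, Ptgis stood at 0.683 ± 0.0131 without induction and 0.252 ± 0.0379 with it (exact two-sided permutation p = 0.333, the smallest possible here).

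Ptgds (ENSMUSG00000015090, chromosome 2), the lipocalin-type prostaglandin D synthase gene known in brain from oligodendrocytes and the meninges, was close to the limit of detection. It had 7 and 0 reads without induction against 0 and 2 with it. A library with 0 reads allows a level of up to 0.0967 CPM in control replicate 2 and 0.0997 CPM in induced replicate 1, taking 3 reads as the floor. The ratio of induced to control reads per total was 0.248 with an exact 95% interval of 0.0252 to 1.30, so no difference was detectable at this depth. The oligodendrocyte markers summed to 1.98 to 2.71 CPM in the controls and 3.20 to 3.86 CPM in the induced cells. Intervals and floors of this kind cover counting error only.

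Per kilobase of exon, Ptges3 was the highest of the tested genes in the controls at 3280 ± 181 normalized reads per kb, followed by Ptgs1 at 1950 ± 129, Pla2g4a at 514 ± 20.3, Ptges at 385 ± 41.2, Ptgs2 at 371 ± 50.6, Ptgis at 263 ± 23.1 and Ptges2 at 124 ± 3.90. The libraries of the neighbours Ptges and Ptgs2 overlapped, and no other neighbours did. In the induced cells Ptges3 at 3234 ± 121 and Ptgs1 at 3143 ± 59.4 overlapped. Ptgs2 came next at 991 ± 53.3, above Pla2g4a at 696 ± 6.53 and Ptges at 402 ± 8.28, and Ptgis at 101 ± 13.2 lay below Ptges2 at 133 ± 10.6. Lengths are the union of all annotated exons in GENCODE M21, so genes with rarely used exons are placed too low.

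**Figure D3:**
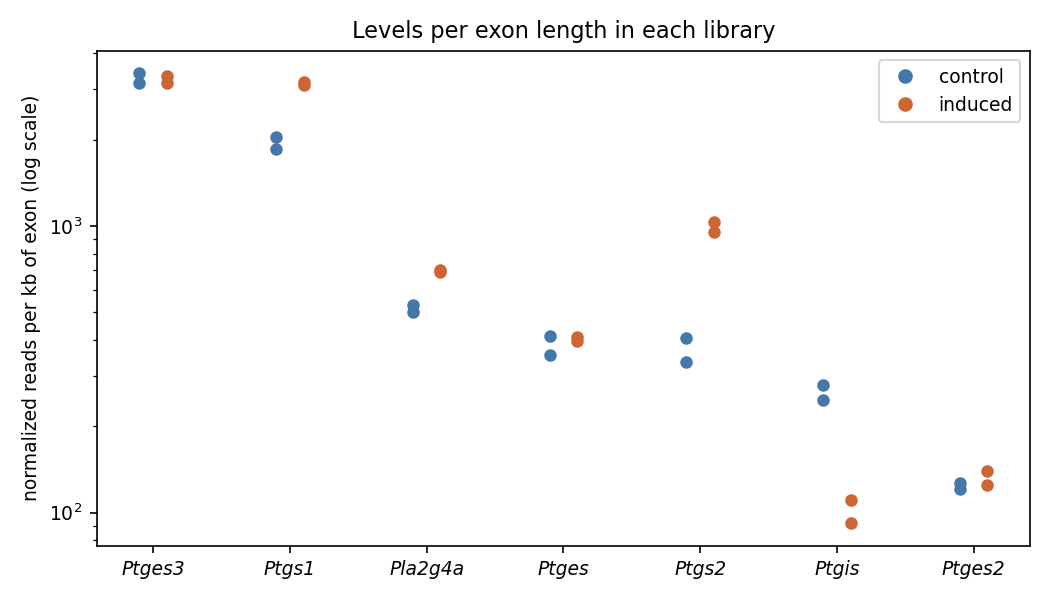
Normalized reads per kilobase of annotated exon (vertical axis, log scale) of the 7 tested prostaglandin enzyme genes, ordered by the control mean. Blue points are the control and orange points the induced libraries. Ptgs2 moves from beside Ptges (371 against 385 in the controls) to above Pla2g4a (991 against 696), and Ptgis from above Ptges2 to below it.

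The rest of the pathway was described through 8 lists with 188 genes in all, of which 158 had a row and 126 were tested. Of these 8 were higher, 2 lower and 116 did not pass. Together that is 7.94%, against 3.42% of all tested genes, and their median log2 fold change was 0.02 against 0.00. At an unadjusted p under 0.05 stood 39 of the 126. The share of all tested genes at that limit was not counted, so nothing is read from such numbers here or below. By limma voom on the recovered reads 7 were called higher and 2 lower.

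Among the tested genes of arachidonate supply none was called outside Pla2g4a, and listed genes under the filter were not tested. In the list of other phospholipases and related genes 23 had a row and 16 were tested. Of the 16, 0 passed in limma and 0 by voom, and 3 stood at an unadjusted p under 0.05 in limma (median log2 fold change -0.05). Anxa1, which encodes the phospholipase inhibitor annexin A1, had 19333 ± 728 and 20594 ± 1181 (adjusted p = 0.529), and Plaa, the phospholipase A2 activating protein gene, 5486 ± 430.0 and 6230.4 ± 42.1 (adjusted p = 0.257). In the list of arachidonate synthesis and reacylation 0 of 15 tested genes passed in limma and 0 by voom (median -0.06). In limma 3 stood at an unadjusted p under 0.05, each below 0. The desaturase genes Fads1 and Fads2 gave log2 differences of -0.16 and 0.01 (adjusted p = 0.253 and 0.961).

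Among the other terminal synthases and reductases 2 of 14 rose and 0 fell, against 2.08% higher and 1.34% lower over all tested genes. The list median was 0.10, none was below 0 at an unadjusted p under 0.05, and voom called 1 higher and 0 lower. Akr1b3, which encodes the mouse aldose reductase, an enzyme with prostaglandin F synthase activity, had 3918 and 4188 normalized reads without induction against 5834 and 6595 with it. It rose 1.53-fold (log2 fold change 0.61, adjusted p = 0.0249), with adjusted p-values up to 0.0657 when 1 library was left out. Akr1c13, an aldo-keto reductase gene, rose 1.69-fold from 646 and 728 to 1285 and 1043 (adjusted p = 0.0442, and up to 0.121 with 1 library left out). It has close relatives that can share reads, so its value is uncertain. The reductase genes Ptgr1 and Cbr2 gave log2 differences of 0.09 and 0.10 (adjusted p = 0.527 and 0.548). The genes of thromboxane synthase, Tbxas1, and of hematopoietic prostaglandin D synthase, Hpgds, fell under the filter, with at most 3.26 and 4.64 normalized reads in any library (both outside the naming rule).

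In the list of receptors and carriers 1 of 8 rose and 0 fell, against 2.08% higher and 1.34% lower over all tested genes. The list median was 0.00, none was below 0 at an unadjusted p under 0.05, and voom called 1 higher and 0 lower. Ptgfrn, which encodes a membrane protein described as a negative regulator of the prostaglandin F receptor, had 4228 and 4215 normalized reads without induction against 5446 and 5639 with it, 1.31-fold (adjusted p = 0.0325). Its call ended whichever library was left out (adjusted p from 0.0742 to 0.144). The prostaglandin carrier gene Slco2a1 and the nuclear receptor gene Ppard gave log2 differences of -0.16 and 0.07 (adjusted p = 0.356 and 0.724). Of the prostanoid receptor genes proper, named outside the rule, Ptger1 had 327 and 269 against 238 and 226 (adjusted p = 0.295). Ptger4 had 189 and 175 against 164 and 184 (adjusted p = 0.863), and Ptgir, the prostacyclin receptor gene, 41.5 and 35.8 against 56.5 and 66.8 (adjusted p = 0.269). Ptgfr and Ptgdr2 were under the filter.

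The 2 neighbouring arms of arachidonate metabolism held 1 called gene each, where 3.42% of all tested genes were called, 2.08% higher and 1.34% lower. In the leukotriene and lipoxygenase list 1 of 7 fell and 0 rose (median -0.17; 1 of the 7 was above 0 at an unadjusted p under 0.05, and voom called 0 higher and 1 lower). It was Dpep1, a dipeptidase gene of leukotriene D breakdown, with 2612 and 2569.7 against 1898 and 1712 (log2 fold change -0.52, adjusted p = 0.0317, and up to 0.106 with 1 library left out). Lta4h, the leukotriene A hydrolase gene, and Mgst1 gave log2 differences of -0.24 and 0.32 (adjusted p = 0.120 and 0.189). In the epoxygenase list 1 of 9 rose and 0 fell (median 0.33; none was below 0 at an unadjusted p under 0.05, and voom called 1 higher and 0 lower). Ephx1, the microsomal epoxide hydrolase gene, rose 1.44-fold from 6843 and 6866 to 9743 and 10064 (adjusted p = 0.0139, and up to 0.0552 with 1 library left out). Cyp1b1 and Cyp2c55 gave log2 differences of 0.39 and 0.47 (adjusted p = 0.0644 and 0.0598).

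Of 40 tested genes listed as regulators of Ptgs2 transcription or transcript stability, 4 rose and 1 fell (median 0.03). Over all tested genes 2.08% were called higher and 1.34% lower. At an unadjusted p under 0.05 stood 15 of the 40, 3 of them below 0, and voom called 4 higher and 1 lower. Nfkbiz, which encodes an NF-kB cofactor, went from 1224 and 1216 normalized reads to 2377 and 2397, 1.96-fold (adjusted p = 0.00528), and passed in all 11 refits. Without a variance trend the adjusted p of Nfkbiz was 0.0492, only just under the limit. Junb, an AP-1 factor gene, rose 1.60-fold, from 1291 and 1415 to 2269 and 2075 (adjusted p = 0.0226). Its exons overlap those of Prdx2, and its adjusted p reached 0.0648 with 1 library left out. Nfatc1, a factor gene of the calcineurin pathway, rose 1.37-fold (adjusted p = 0.0399, and from 0.0923 to 0.176 with 1 library left out). Nfkbia, which encodes the NF-kB inhibitor alpha and was named outside the rule as the smallest of the 5 calls, rose 1.37-fold (adjusted p = 0.0342). Whether the Nfkbia call holds in the refits was not examined. Egr1, an immediate early factor gene, fell from 2496 and 2682 to 1806 and 1641 (log2 fold change -0.59, adjusted p = 0.0280, and up to 0.0873 with 1 library left out). The most abundant others, the RNA-binding protein genes Rbm3 and Zfp36l2, both gave log2 fold changes of 0.03 (adjusted p = 0.888 and 0.817). Among the 17 tested partners of the Ptges3 product, Hsp90 and its co-chaperones, 0 passed in limma and 0 by voom (median -0.02). In limma 4 stood at an unadjusted p under 0.05. Hsp90ab1 had a log2 fold change of -0.20 (adjusted p = 0.211) and Hspa8 of 0.04 (adjusted p = 0.873).

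**Figure D4:**
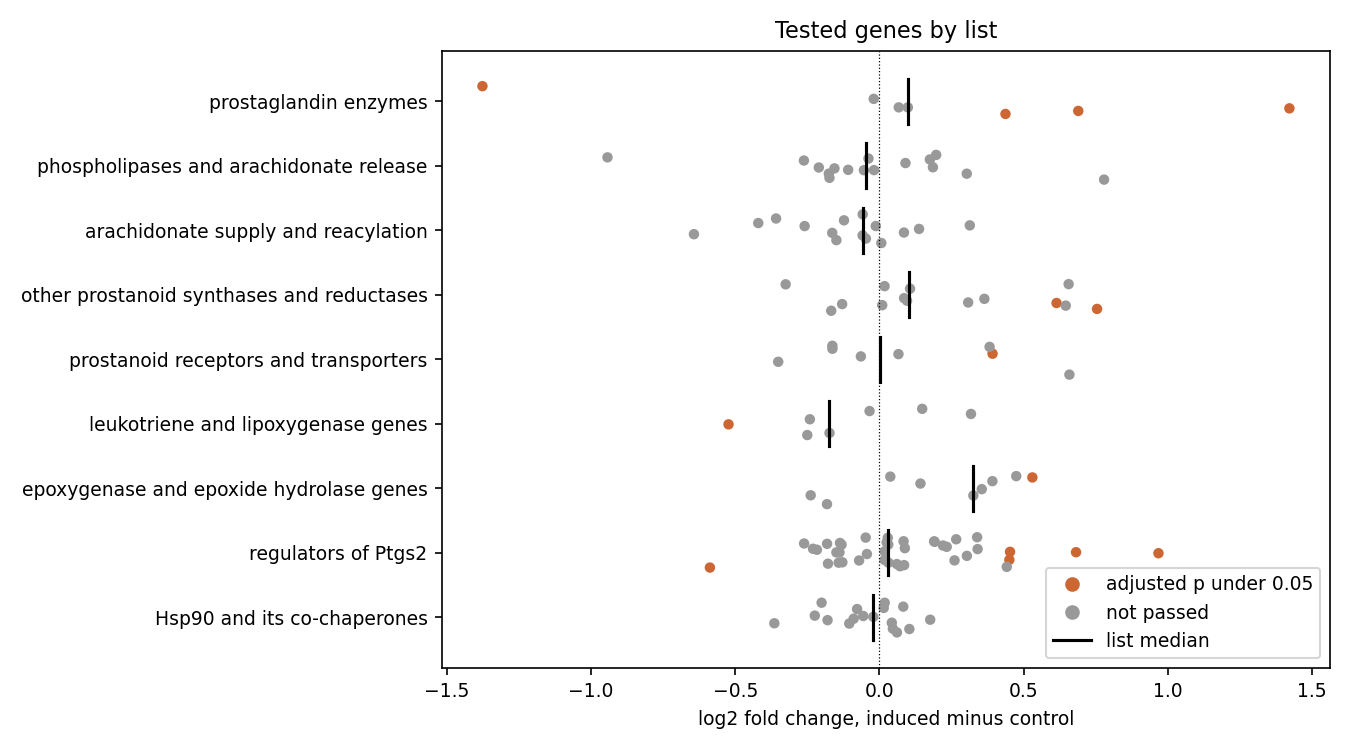
Log2 fold change, induced minus control (horizontal axis), of every tested gene in the prostaglandin enzyme set and the 8 lists around it. Each point is a gene, black bars are list medians, and orange marks an adjusted p under 0.05. The prostaglandin enzymes spread from -1.38 to 1.42 and hold 4 called genes of 7, against 3.42% of all tested genes. Their median of 0.10 lies within the medians of the 8 lists, -0.17 to 0.33. Genes of those lists spread from -0.94 to 0.97.

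The tested genes whose values followed those of Ptgs2 most closely were found by the Euclidean distance between log2 values, each centred on its mean over the 4 libraries. Predicted models, with symbols of the Gm or Rik kind, were left out of this ranking. Nearest was the pseudogene Tmem181b-ps (distance 0.177, adjusted p = 0.0506). Oasl1, an interferon-stimulated gene, followed at 0.229, Nagpa, which encodes an enzyme of the lysosomal sorting signal, at 0.253, the amino acid transporter gene Slc36a1 at 0.255 and the serpin gene Serpinb9b at 0.256. They were 2.52, 2.93, 2.27, 2.64 and 2.69-fold higher in the induced cells. With 4 libraries in 2 groups, this likeness mostly restates a group difference of similar size.

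**Figure D5:**
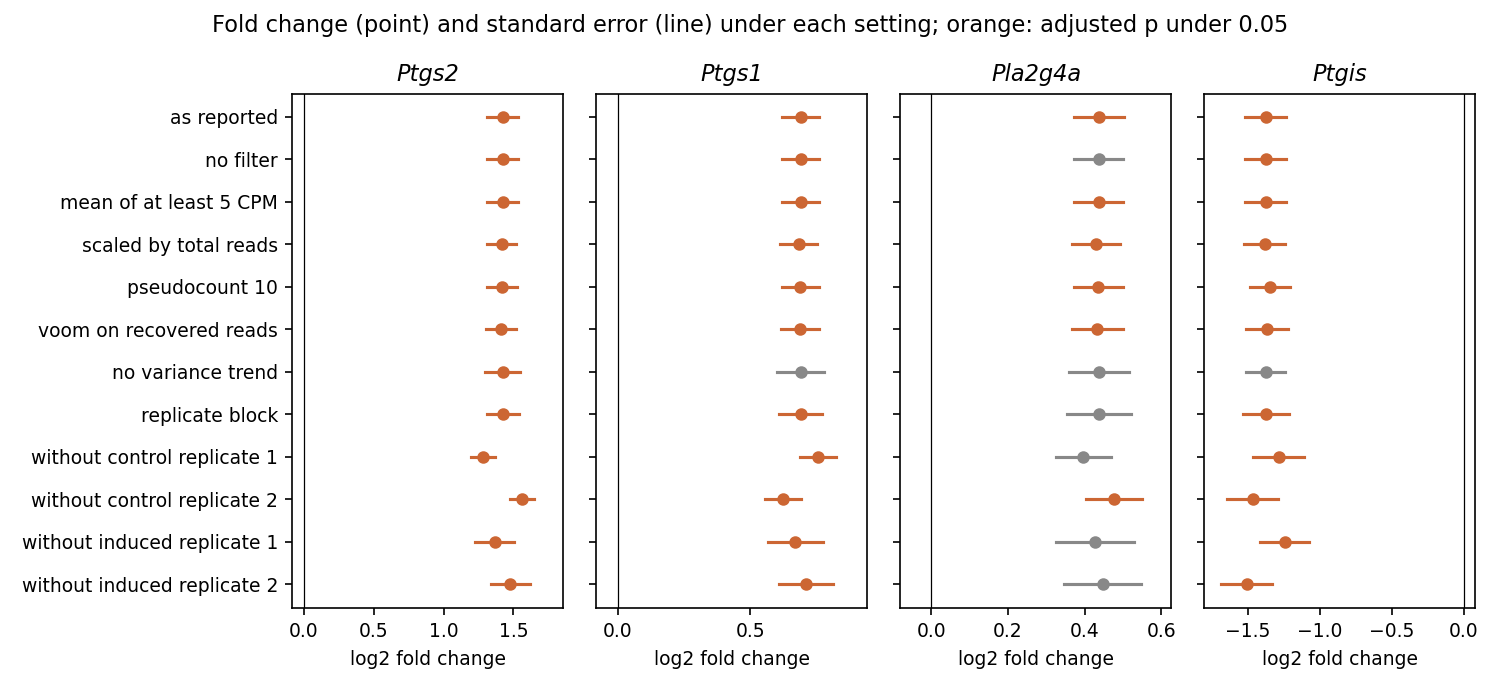
Log2 fold change (points) and standard error (lines) of the 4 called prostaglandin enzyme genes as reported and under 11 other settings, with a scale of its own per panel. Orange marks an adjusted p under 0.05. Ptgs2 is orange throughout, Ptgs1 and Ptgis in all but the fit without a variance trend, and Pla2g4a in 5 of the 11, and no point crosses 0.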

How the data were processed

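Trizol RNA went into TruSeq RNA libraries, per the labels' protocols. HISAT, Cufflinks and the build mm9 appear in the submitters' processing notes with no version. How reads were counted and scaled is not given in the sources used here. Values as deposited are log2: raised as powers of 2 and less 1, all were whole multiples of 1 step per library (tolerance 0.01), so they are log2(normalized reads + 1), and whole reads were recovered. Columns were matched to samples by their descriptions.

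Genes whose mean reached 1 CPM were tested with limma 3.58.1 (R 4.3.3), with a variance trend, both groups and no covariate. On simulated libraries of the induced against control comparison (13276 genes, 200 changed) it found 80% of 2-fold and 94% of 4-fold changes, with 12.6% of its 199 calls false. The genes, lists and tests were chosen with earlier results of these data known. Named were the 9 enzymes, Pja2, per list up to 4 called genes and the 2 most abundant others, and the 5 genes nearest to Ptgs2. From these nearest genes predicted models (Gm, Rik) were left out. Promoters came from RefSeq (GRCm38.p6), and lengths, chromosomes and overlaps from GENCODE M21, by Ensembl identifier. Alternatives were other filters (none, 5 CPM), scaling by total reads, a pseudocount of 10, limma voom on the recovered reads, no trend, a replicate block and leaving out each library.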

Additional observations from a re-analysis of the deposited data

How the results depend on the processing

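Ptgs2 kept its call in all 11 alternatives. Without a variance trend it was only just under the limit (adjusted p = 0.0492). In that fit Ptgs1 and Ptgis lost their calls (adjusted p = 0.0763 and 0.0513), leaving 1 enzyme gene higher and 0 lower, with 3 and 1 at an unadjusted p under 0.05. Pla2g4a lost its call without the filter, without the trend and with the replicate block (adjusted p = 0.0659, 0.120 and 0.0668), and when either induced library or control replicate 1 was left out. Over all genes 276 were higher and 178 lower, against 100 and 59 without the filter, 64 and 52 without the trend, 157 and 104 with the replicate block, and 113 to 204 and 78 to 136 with 1 library left out. Pathway genes numbered 8 higher and 2 lower, against 2 and 0 without the filter, 1 and 0 without the trend, 4 and 0 with the block, and 3 to 5 and 0 to 3 with 1 library left out. At an unadjusted p under 0.05 these fits had 6 to 15 lower ones. Voom had 13 at that limit and called 2 by its adjusted p. Same-numbered samples did not deviate together (r = -0.095 over 13276 genes), so the numbers were not taken as pairs. Genes that had not passed changed sign: Fads2 had a log2 fold change of -0.00049 when scaled by total reads, and with 1 library left out the log2 fold changes ran from -0.042 to 0.18 for Ptges, -0.076 to 0.037 for Ptges3, -0.0032 to 0.017 for Fads2, -0.019 to 0.15 for Ppard, -0.10 to 0.16 for Rbm3 and -0.12 to 0.20 for Hspa8. The causes were not tested. Leaving out a library leaves fewer residual degrees of freedom, so lost power and dependence on a library cannot be told apart. Depth limits Ptgds alone among the enzyme genes with a row.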
